A study of Mus musculus with 6 samples.

Results

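The genes described are the 99 of 21700 in the table that encode subunits of the respiratory chain and of the ATP synthase it drives. They were chosen by gene symbol, as the mitochondrially encoded genes (symbols starting mt-), the numbered Nduf genes of complex I, the Sdh genes of complex II, the Uqcr genes and Cyc1 of complex III, the Cox4 to Cox8 genes of complex IV and the Atp5 genes of complex V. Of these, 13 lie on the mitochondrial genome (7 for complex I, 1 for complex III, 3 for complex IV and 2 for complex V) and 86 in the nucleus (38, 4, 9, 18 and 17 for complexes I to V). The symbols decide membership, so Ndufa4, which is now regarded as a subunit of complex IV, counts under complex I, and Cox7a2l, which joins complexes into supercomplexes, under complex IV.

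RNA was measured in biliary epithelial cells, the cells that line the bile ducts, of wild-type female C57BL/6 mice, in 3 libraries from non-pregnant animals and 3 from pregnant animals at dpc8 (8 days post coitum). No age, transgene or treatment is given for either group. The cells were sorted by flow cytometry from enzymatically digested livers after the hepatocytes had been spun out, and the labels do not name the antibodies that set the gate. Libraries were made from total RNA after removal of ribosomal RNA. The labels do not tie the libraries of a group to separate animals. The p-values therefore measure the spread between libraries, which may be technical.

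Complexes I and II take electrons from NADH and succinate and pass them through ubiquinone, complex III and cytochrome c to complex IV, which reduces oxygen. The proton gradient built on the way drives complex V, the ATP synthase. Most subunits are made from nuclear genes, and a few hydrophobic ones at the core of complexes I, III, IV and V from the mitochondrial genome, whose strands are each copied as long transcripts and then cut into single RNAs. Bile duct cells spend ATP on moving ions and water into bile.

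Values are FPKM, that is fragments per kilobase of exon, scaled to library depth, as the authors deposited them. The steps between low values gave library totals of 25312113 to 35213525 fragments. Of these, 24448312 to 34285323 were recovered as whole numbers in genes, with 15928 to 16245 genes above 0. Markers of biliary epithelium were present at unequal levels. With the non-pregnant group first, levels were 281 ± 58.6 and 369 ± 22.6 FPKM for the keratin Krt19 (SD, n = 3 each), 183 ± 1.16 and 193 ± 2.54 FPKM for the surface protein Epcam and 287 ± 17.04 and 302 ± 26.5 FPKM for the ductal regulator Sox9. The spread was unequal. Pairs of non-pregnant libraries had Spearman correlations of 0.956 to 0.979 across tested genes, and pairs of pregnant ones of 0.991 to 0.995. Markers of other liver cells differed too. The summed FPKM of 12 Kupffer cell and macrophage markers, none at 0 in all libraries, ranged from 21.8 to 52.9 in the non-pregnant and from 73.4 to 153 in the pregnant group. Most of the non-pregnant sum was Csf1r, a receptor of macrophage growth, whose means were 32.5 and 34.7 FPKM. The other 11 summed to between 2.69 and 9.25 FPKM without pregnancy and to between 43.4 and 115 FPKM in pregnancy, each 8.76-fold to 16.01-fold higher in its mean. Of the 10 tested, 5 passed the test (Cd5l, C1qc, C1qa, Ctss and Fcna, limma adjusted p of 0.0357 to 0.0393), among 7 genes in the whole table that rose. The sum of 8 endothelial markers was 186 FPKM in non-pregnant library 2 and from 15.1 to 30.2 FPKM in the other 5. The sum of 10 biliary markers ran from 6129 to 7586 FPKM in the non-pregnant and from 8202 to 8730 FPKM in the pregnant group, and that of 10 hepatocyte markers from 2389 to 2974 FPKM and from 2363 to 2677 FPKM. Most of the hepatocyte sum was the albumin gene Alb, at 2327 ± 310 and 2147 ± 110 FPKM, above Krt19, Epcam, Sox9 and Krt7. The part of these cells in the values below was not tested, and in bulk RNA fewer cells of a type and less RNA per cell cannot be told apart.

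Of the 13 mitochondrial genes 6 were listed at 0 in all 6 libraries, among them mt-Co2 and mt-Co3 of complex IV and both subunit genes of complex V. The other 7 were among the more abundant members, up to 2088 FPKM. The 6 at 0 were mt-Co2, mt-Atp8, mt-Atp6, mt-Co3, mt-Nd3 and mt-Nd4l, and they follow each other without a gap in the order of the protein genes on the mitochondrial genome, from mt-Co2 (chrM:7013-7696) to mt-Nd4l (chrM:9877-10173, mm10). Their neighbours on both sides were abundant. In the 3 non-pregnant libraries mt-Co1, the gene before the block, stood at 1561, 1250.0 and 1465 FPKM, and mt-Nd4, the gene after it, at 335, 271 and 279.6 FPKM.

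The same stretch has a copy in the nuclear genome. GENCODE vM21, an annotation of mm10, lists 7 unprocessed pseudogenes side by side on the minus strand of chromosome 1 (chr1:24611535-24616197), which match in turn the end of mt-Co1, mt-Co2, mt-Atp6, mt-Co3, mt-Nd3, mt-Nd4l and the start of mt-Nd4. The copies of mt-Co2 (Gm28661, 681 bases), mt-Atp6 (Gm10925, 678 bases), mt-Co3 (Gm28437, 783 bases) and mt-Nd4l (Gm10222, 294 bases) are identical to the mitochondrial gene over their whole length. Gm28439 equals mt-Nd4 over its 876 bases, out of 1378 in mt-Nd4. The copy of mt-Nd3 (Gm28438) differs from the mitochondrial gene at 1 base, T3C. That of mt-Co1 (Gm29216, 492 bases) differs at 1 base, A1066T, over the 483 bases that aligned. Its remaining bases lay outside the alignment and were not compared. Positions are counted from the first base of the mitochondrial gene, with the mitochondrial base first. The first 150 bases of mt-Nd3 and its copy are printed to show how little tells them apart, with the base that differs in capitals. The whole copy of mt-Nd4l follows and has no base that differs.
mt-Nd3: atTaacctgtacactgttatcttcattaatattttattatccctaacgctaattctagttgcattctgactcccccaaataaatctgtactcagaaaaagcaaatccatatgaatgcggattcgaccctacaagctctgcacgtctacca
Gm28438: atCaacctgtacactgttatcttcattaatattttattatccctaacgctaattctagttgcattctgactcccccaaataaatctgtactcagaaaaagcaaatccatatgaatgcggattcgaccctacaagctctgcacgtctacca
Gm10222: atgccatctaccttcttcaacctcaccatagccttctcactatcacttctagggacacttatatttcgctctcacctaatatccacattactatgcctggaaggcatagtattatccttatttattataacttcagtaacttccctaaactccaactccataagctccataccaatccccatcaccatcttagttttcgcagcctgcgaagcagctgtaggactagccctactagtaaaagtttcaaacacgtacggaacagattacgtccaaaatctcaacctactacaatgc

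The 3 sequences are from the GENCODE vM21 transcripts, mt-Nd3 from the start of chrM:9459-9806 (plus strand), Gm28438 from the start of chr1:24612775-24613119 and Gm10222 from chr1:24612407-24612700 (both minus strand). To put a number on the overlap, every run of 50 bases in a gene's transcripts was looked up in all other annotated genes. The share found in a pseudogene was 100% for mt-Co2, 99.9% for mt-Co3, 99.5% for mt-Atp6, 98.8% for mt-Nd4l and 98.0% for mt-Nd3. It was 62.2% for mt-Nd4 and 51.1% for mt-Co1, which were both measured. For mt-Nd2 and mt-Nd5 it was 8.19% and 7.61%, and for mt-Nd1, mt-Nd6 and mt-Cytb 0%. So 5 of the 6 genes at 0 had hardly any run of 50 bases of their own. The sixth, mt-Atp8 (204 bases), has no annotated copy, but it lies between mt-Co2 and mt-Atp6 and overlaps mt-Atp6 by 43 bases. The copies of these neighbours are separated by 233 bases on chromosome 1, against 230 bases between the genes on the mitochondrial genome. The sources used here do not say how fragments that map to several places were counted, and whether this set the zeros was not tested. No fold or interval can be given for these 6 genes, and the levels of mt-Co1 and mt-Nd4, which share over 50% of their runs, are uncertain.

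**Figure D1:**
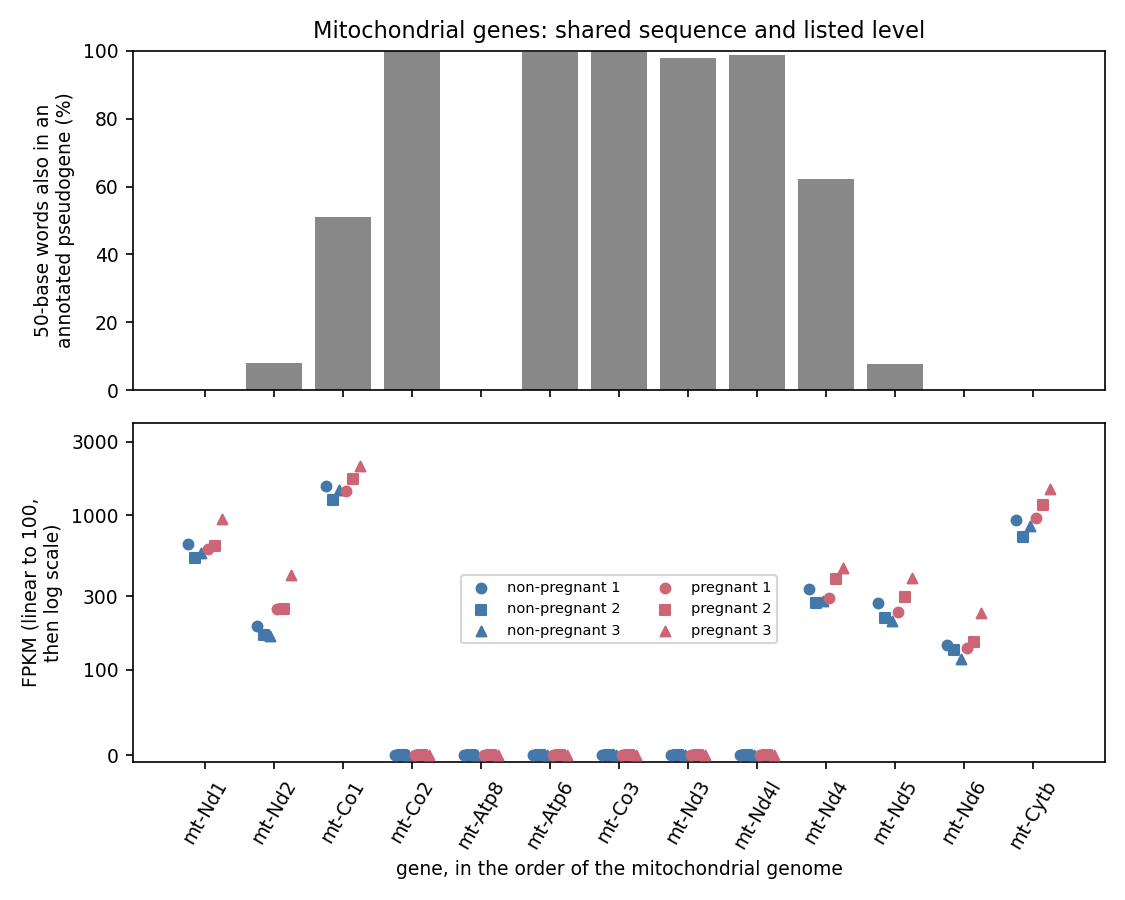
The upper panel gives the share of 50-base runs of each mitochondrial gene that also occur in an annotated pseudogene (%), the lower panel FPKM in each of the 6 libraries (points; linear to 100, log scale above), with genes in the order of the mitochondrial genome. The 6 genes from mt-Co2 to mt-Nd4l are listed at 0 in all libraries, and 5 of them share 98.0% to 100% of their runs; in all 7 measured genes the highest point is pregnant library 3.

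Of the 99 genes, 87 averaged 1 FPKM or more across the 6 libraries and were tested together with all other such genes, 11412 in all (limma on log2(FPKM + 1), Benjamini-Hochberg over all 11412). None of the 87 passed at an adjusted p of 0.05, where 0.0876% of all tested genes, 10 in number, did. Their adjusted p ran from 0.277 to 0.998. At an unadjusted p under 0.05 there were 13 members higher and 0 lower in pregnancy, against 7.09% and 6.3% of all tested genes. With limma-voom on the recovered fragments 0 members passed as well, where 0.00889% of all genes, 1 in number, did, and 12 members, or 13.8%, had an unadjusted p under 0.05, against 13% of all genes in that fit. The groups did not overlap for 17 members, or 19.5%, all higher in pregnancy, where 9.9% of all tested genes did so upward and 12.2% downward. Lastly, the log2 change lay above 0 for 58 of the 87, or 66.7%, against 44.8% of all tested genes. The members' median log2 change was 0.07, with -0.02 over all tested genes. No single gene is therefore said to have changed, and the values below describe group means and their spread.

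**Figure D2:**
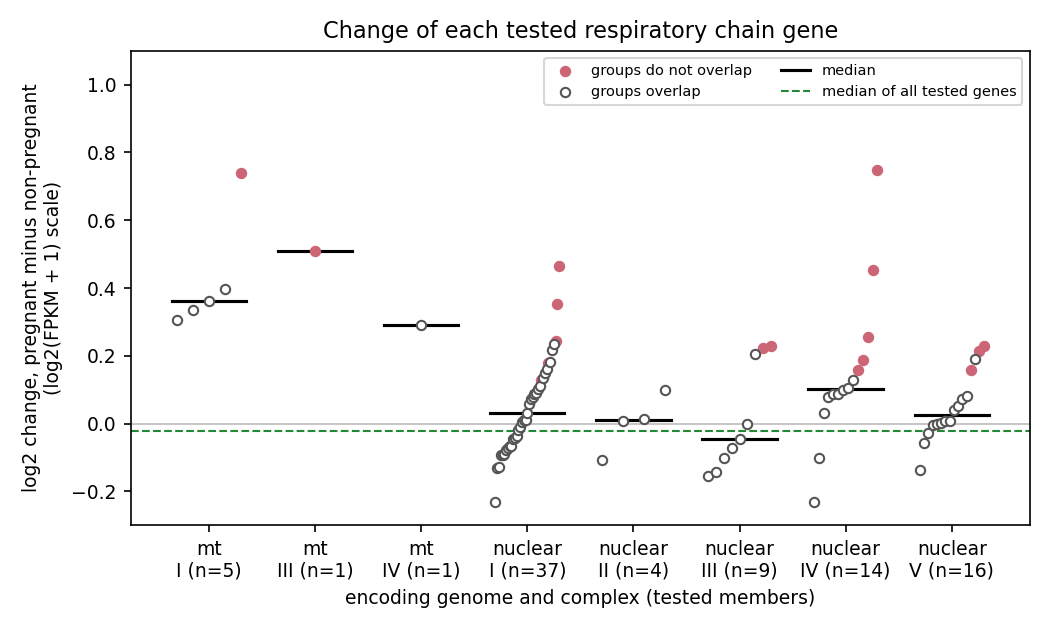
Each point is the log2 change of a tested member (vertical axis, pregnant minus non-pregnant on the log2(FPKM + 1) scale) by encoding genome and complex, filled where the groups do not overlap, with bars for medians. All 7 mitochondrial genes lie above 0, with a median of 0.36, while the nuclear medians lie between -0.04 and 0.10.

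The 7 measured mitochondrial genes stood higher in the pregnant group mean, with log2 changes from 0.29 to 0.74 and a median of 0.36. All 7 lay above 0 under each of the 5 scalings used, with a median of 0.30 to 0.40, and quantile normalisation gave the lowest values, from 0.17 to 0.70. None passed the test (limma adjusted p from 0.295 to 0.476). Their summed level was 4092, 3293 and 3665 FPKM in the non-pregnant and 3938, 4619 and 6023 FPKM in the pregnant libraries. The groups overlapped, since non-pregnant library 1 was above pregnant library 1. The group means were 3684 ± 399.7 and 4859.9 ± 1063 FPKM (SD, n = 3 each), a 1.32-fold difference that pregnant library 3 decided in large part. That library was the highest for all 7 genes, and for 16.9% of all tested genes. Without it the log2 changes of the 7 genes ran from 0.10 to 0.49 with a median of 0.19, and without pregnant library 1 the median was 0.51.

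Fragments of the 7 genes made up between 0.439% (exact 95% interval 0.437% to 0.441%) of the recovered fragments, in non-pregnant library 2, and 0.801% (0.797% to 0.804%), in pregnant library 3. Such intervals take in only counting error and are far narrower than the differences between libraries of a group. Fragments had no molecular identifiers, so duplicates could not be told apart and each fragment was counted as independent. Unlike most genes, the mitochondrial ones varied more among the pregnant libraries. The coefficient of variation was larger in the pregnant group for all 7, with a median of 25.5% against 11.2% in the non-pregnant group. Over all tested genes it was larger in the non-pregnant group for 75.5%, and among the 80 tested nuclear members for 66.

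Among the mitochondrial genes of complex I, mt-Nd2, which encodes a membrane subunit of the proton-pumping arm, stood furthest apart. It was at 193, 168 and 166 FPKM in the non-pregnant and 248, 247 and 413 FPKM in the pregnant libraries. The groups did not overlap, and pregnant library 3 stood well above the other 2. Group means were 176 ± 14.7 and 302 ± 95.5 FPKM (SD, n = 3 each), a ratio of 1.72 (log2 change of 0.74 with SE 0.20, limma adjusted p = 0.295). Without pregnant library 3 the log2 change was 0.49. The gene (ENSMUSG00000064345; chrM:3914-4951, plus strand) had 5280 to 10845 fragments per library, so counting error was small beside the spread. The neighbouring gene mt-Nd1, for the subunit at the junction of membrane and matrix arm, was at 651, 529 and 572 FPKM in the non-pregnant and 610.1, 637 and 955 FPKM in the pregnant libraries. Here the groups overlapped, and pregnant libraries 1 and 2 lay within the range of the non-pregnant ones.

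The groups also overlapped in the other measured complex I genes. For mt-Nd4 the values were 335, 271 and 279.6 FPKM in the non-pregnant and 293, 384 and 453 FPKM in the pregnant libraries, and for mt-Nd5 they were 269.6, 216 and 206 FPKM and 236, 298 and 392 FPKM in the same order. Both encode proton-pumping subunits, and in both non-pregnant library 1 was above pregnant library 1. The gene mt-Nd6 is the protein gene on the opposite strand of the mitochondrial genome. It stood at 144, 134 and 118 FPKM in the non-pregnant and 138, 152 and 231 FPKM in the pregnant libraries, the lowest level of the 7, with pregnant library 1 inside the non-pregnant range. Whether the counting used strand is not stated, so reads of mt-Nd6 and antisense RNA from the other strand cannot be told apart.

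For complex III, mt-Cytb encodes cytochrome b, its only mitochondrially made subunit. It stood at 938, 726 and 859 FPKM in the non-pregnant and 965, 1172 and 1491 FPKM in the pregnant libraries. The groups did not overlap, though pregnant library 1 lay close above non-pregnant library 1. The means were 841 ± 108 and 1209 ± 265 FPKM (SD, n = 3 each), a ratio of 1.44 (log2 change of 0.51 with SE 0.19, limma adjusted p = 0.334). The log2 change was 0.22 after quantile normalisation and 0.35 without pregnant library 3. For complex IV, mt-Co1 encodes the catalytic subunit that holds the site of oxygen reduction. It had the highest level among the members not listed at 0. Its values were 1561, 1250.0 and 1465 FPKM in the non-pregnant and 1448, 1729 and 2088 FPKM in the pregnant libraries. Pregnant library 1 was below both non-pregnant libraries 1 and 3, and the group means were 1425 ± 159 and 1755 ± 321 FPKM (log2 change of 0.29 with SE 0.18, limma adjusted p = 0.467). Without pregnant library 3 the log2 change was 0.16, and after quantile normalisation 0.17.

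A factor that scales a whole library leaves ratios between genes as they are, and some ratios between mitochondrial genes separated the groups in the deposited values. The ratio of mt-Nd2 to mt-Nd1 was 0.296, 0.318 and 0.291 in libraries 1 to 3 of the non-pregnant group and 0.406, 0.388 and 0.432 in those of the pregnant group. All 3 pregnant values lay above all 3 non-pregnant ones, also in pregnant libraries 1 and 2, where mt-Nd1 itself lay within the non-pregnant range. The ratio of mt-Co1 to mt-Cytb was 1.66, 1.72 and 1.71 against 1.500, 1.48 and 1.400, and again the groups did not overlap, with the pregnant libraries lower. The ratio of the opposite-strand gene mt-Nd6 to mt-Nd5 was 0.535, 0.621 and 0.572 against 0.585, 0.5103 and 0.5897, and it overlapped. Of the 21 ratios between the 7 genes, 7 did not overlap between groups, 5 of them among the 6 ratios that involve mt-Nd2 and 2 among those with mt-Cytb. After quantile normalisation, which does not scale a library by 1 factor, 3 of the 21 did not overlap, all with mt-Nd2 (mt-Nd1, mt-Nd6 and mt-Co1 as partners), and the ratio of mt-Co1 to mt-Cytb overlapped. Of all tested genes 22.1% did not overlap in their level. The ratios were chosen for mention after the values were seen, share genes with each other and carry no test.

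The nuclear genes as a whole stood at nearly the same level in both groups. The FPKM of the 86 nuclear members summed to 2549, 2824 and 2879 without pregnancy and to 2839, 2873 and 2781 in pregnancy. Non-pregnant library 1 was lowest and the other 5 lay close together. The means were 2751 ± 177 and 2831 ± 46.6 FPKM (SD, n = 3 each), a ratio of 1.03. The ratio of the sum of the 7 measured mitochondrial genes to the nuclear sum was 1.61, 1.17 and 1.27 against 1.39, 1.61 and 2.17. The 6 mitochondrial genes listed at 0 add nothing to that sum. The groups overlapped in this ratio, with non-pregnant library 1 as high as pregnant library 2 and pregnant library 3 above all others. Its mean was 1.28-fold higher in the pregnant group, and 1.11-fold without pregnant library 3.

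Of the 80 tested nuclear members 51 lay above 0, the median log2 change being 0.05, and 65 differed by less than 0.2 on the log2 scale in either direction. Standard errors ran from 0.06803 to 0.221, with a median of 0.0909. Non-pregnant library 1 was the lowest for 49 of the 80, or 61.3%, against 13.99% over all tested genes. Without that library 38 of the 80 lay above 0 and the median was -0.01. By complex the medians were 0.03 for I (22 of 37 above 0), 0.01 for II (3 of 4), -0.04 for III (3 of 9), 0.10 for IV (12 of 14) and 0.02 for V (11 of 16). The summed FPKM of each complex differed between the group means by 1.03-fold for I, 0.982 for II, 1.00 for III, 1.07 for IV and 1.01 for V.

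**Figure D3:**
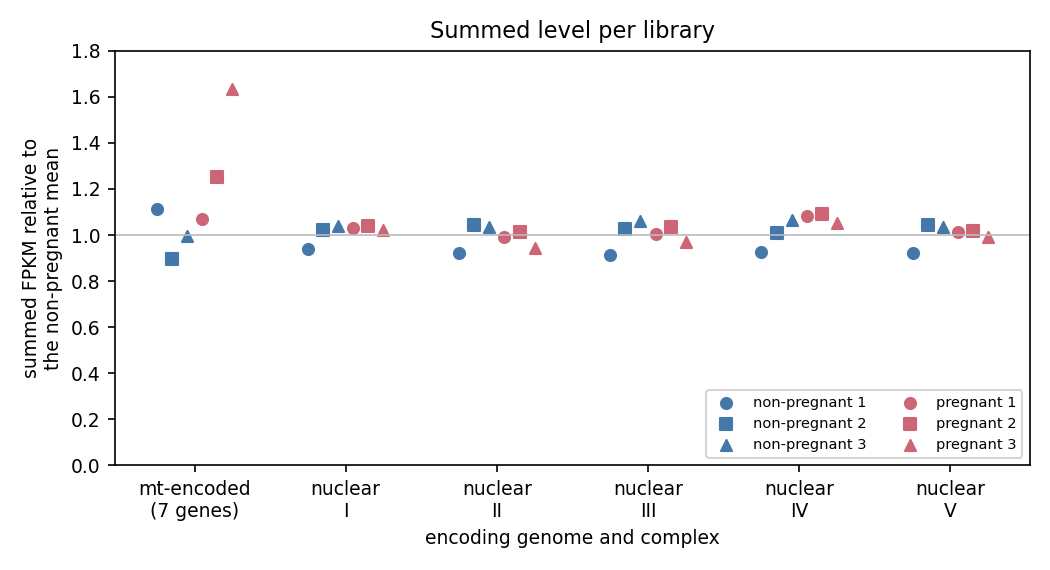
Summed FPKM of the 7 measured mitochondrial genes and of the nuclear genes of each complex in the 6 libraries (points), divided by the mean of the 3 non-pregnant libraries. The nuclear sums lie close to 1 in both groups with non-pregnant library 1 lowest; the mitochondrial sum spreads upward in the pregnant libraries, to 6023 FPKM in pregnant library 3.

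Complex I is the largest, with a matrix arm that oxidises NADH and a membrane arm that pumps protons. Its 7 conserved nuclear core subunits, which carry the flavin and the iron-sulfur clusters, had a median log2 change of -0.07, and 6 of the 7 lay below 0. The 30 other tested genes had a median of 0.07, with 21 above 0. They are accessory subunits, together with Ndufa4 and the row Ndufb1-ps, which the symbols place here. The difference between the medians was not tested. Median exon length was 2178 bases for the core genes and 1234 bases for the 30 others, and the part of length was not tested. Of the core genes, Ndufv1, which binds the flavin, had group means of 32.8 ± 2.56 FPKM without pregnancy and 30.7 ± 0.842 FPKM in pregnancy (SD, n = 3 each). Of all tested genes 9.9% separated the groups upward and 12.2% downward. The groups overlapped for all 7 core genes. For 5 accessory genes, 16.7% of the 30 others, they did not, each higher in the pregnant group.

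Among these was Ndufs6 (ENSMUSG00000021606; chr13:73319838-73328542, minus strand), a zinc-binding accessory subunit of the matrix arm, with the smallest p of all members. Its values were 23.2, 24.6 and 22.1 FPKM in the non-pregnant and 27.8, 31.2 and 31.1 FPKM in the pregnant libraries. The 3 pregnant libraries all lay above the 3 non-pregnant ones, and the means of 23.3 ± 1.26 and 30.1 ± 1.92 FPKM (SD, n = 3 each) differed 1.29-fold (log2 change of 0.35 with SE 0.08, limma adjusted p = 0.277). For Ndufc1, a small membrane subunit, they were 6.58, 8.76 and 6.82 FPKM in the non-pregnant and 9.62, 10.02 and 12.00 FPKM in the pregnant libraries. Again the groups did not overlap, with non-pregnant library 2 closest to the pregnant ones (log2 change of 0.46 with SE 0.12, limma adjusted p = 0.295). It had 282 to 463 fragments per library. For the membrane arm gene Ndufb6 the values were 19.2, 19.5 and 21.2 FPKM in the non-pregnant and 25.01, 22.7 and 23.7 FPKM in the pregnant libraries, and the gap between the groups was narrow.

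The others that did not overlap, Ndufa3 and Ndufa13, were close to the border. Ndufa3 stood at 33.7, 36.05 and 33.4 FPKM in the non-pregnant and 38.1, 37.2 and 41.9 FPKM in the pregnant libraries, and Ndufa13, also known as GRIM-19, at 47.7, 49.6 and 48.6 FPKM and 53.7, 54.4 and 51.7 FPKM in the same order. The largest difference downward was in Ndufa6, an accessory subunit of the LYR family, at 55.3, 48.6 and 61.6 FPKM in the non-pregnant and 50.4, 51.5 and 39.05 FPKM in the pregnant libraries. Its groups overlapped, and the low value of pregnant library 3 was the lowest of the 6 (limma adjusted p = 0.443). The means were 55.2 FPKM in the non-pregnant and 46.98 FPKM in the pregnant group, or 50.95 FPKM without that library. The highest levels in the complex were those of Ndufb11 at 53.96 ± 5.47 and 52.4 ± 3.37 FPKM (SD, n = 3 each) and of Ndufa6. Over the 37 tested genes the mean level ran from 3.35 FPKM for Ndufb2 to 53.2 FPKM for Ndufb11. The row Ndufb1-ps, annotated as a non-coding transcript of a bidirectional promoter, stood at 9.54 ± 1.32 and 8.89 ± 1.11 FPKM.

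In complex II, also an enzyme of the citric acid cycle and the only complex with no mitochondrially made subunit, no gene separated the groups. Sdha, the flavoprotein that oxidises succinate, was at 60.5, 66.3 and 60.6 FPKM in the non-pregnant and 57.3, 60.7 and 55.8 FPKM in the pregnant libraries. The pregnant values lay in the lower part of the range and the groups overlapped (limma adjusted p = 0.536). The iron-sulfur subunit Sdhb stood at 20.6 ± 1.62 and 20.8 ± 0.593 FPKM, and the membrane anchors Sdhc at 23.4 ± 2.82 and 25.1 ± 1.699 FPKM and Sdhd at 39.99 ± 4.33 and 40.1 ± 1.78 FPKM (SD, n = 3 each). For each of the 3 the difference was below the SD of the non-pregnant group.

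In complex III 6 of 9 genes lay below 0. The core protein Uqcrc2 stood at 34.2, 38.9 and 43.8 FPKM in the non-pregnant and 33.98, 38.2 and 33.1 FPKM in the pregnant libraries, and the Rieske iron-sulfur protein Uqcrfs1 at 45.8, 51.2 and 65.05 FPKM and 50.3, 48.4 and 45.04 FPKM in the same order. In both, non-pregnant library 3 was highest and the groups overlapped. Uqcrc1, the other core protein, and the hinge protein Uqcrh stood at 26.4 ± 2.09 and 25.5 ± 0.393 FPKM and 61.6 ± 4.84 and 57.3 ± 5.18 FPKM (SD, n = 3 each), and Cyc1, the cytochrome c1 that hands electrons to cytochrome c, at 24.8 ± 2.84 and 24.6 ± 0.219 FPKM. The 3 genes above 0 encode small subunits. Uqcr10 was at 50.3, 56.9 and 51.4 FPKM in the non-pregnant and 59.01, 64.3 and 62.03 FPKM in the pregnant libraries, without overlap (log2 change of 0.22 with SE 0.08, limma adjusted p = 0.331). Uqcrq was at 9.28, 11.9 and 10.3 FPKM and 12.7, 12.5 and 12.04 FPKM, also without overlap, though pregnant library 3 was only just above non-pregnant library 2. For Uqcr11 the values were 44.98, 54.7 and 46.8 FPKM and 57.9, 58.2 and 52.8 FPKM, which overlapped.

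The groups separated upward for 9.9% of all tested genes and 18.75% of the 80 tested nuclear members. Complex IV had the largest share of nuclear members without overlap, 5 of 14 or 35.7%. All 5 were higher in the pregnant group, and the difference between complex IV and the others was not tested. Several subunits of complex IV come in alternative isoforms, some of them best known from heart and skeletal muscle or from testis. Cox7a1 (ENSMUSG00000074218; chr7:30184144-30186078, plus strand), the isoform of heart and skeletal muscle, was at 6.98, 8.96 and 4.09 FPKM in the non-pregnant and 11.2, 10.6 and 12.6 FPKM in the pregnant libraries. The groups did not overlap, with non-pregnant library 3 lowest by far. The means of 6.68 ± 2.45 and 11.5 ± 1.05 FPKM (SD, n = 3 each) differed 1.72-fold, the same ratio as for mt-Nd2 (log2 change of 0.75 with SE 0.22, limma adjusted p = 0.298). Without non-pregnant library 3 the log2 change was 0.48. Fragments per library were 77 to 175, so counting error is not negligible here.

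The widespread isoform of the same subunit, Cox7a2, stood at 39.5, 43.5 and 44.3 FPKM in the non-pregnant and 43.2, 46.2 and 45.9 FPKM in the pregnant libraries, with overlap. Cox7a1 therefore made up 15.01, 17.1 and 8.46% of the FPKM of the pair without pregnancy and 20.5, 18.6 and 21.6% in pregnancy. The shares did not overlap, but pregnant library 2 was near non-pregnant library 2. Cox6b2, known as the testis isoform of a subunit that closes complex IV on the intermembrane side, was at 3.12, 4.18 and 2.84 FPKM in the non-pregnant and 4.91, 5.32 and 4.64 FPKM in the pregnant libraries (log2 change of 0.45 with SE 0.12, limma adjusted p = 0.295). Without non-pregnant library 2 its log2 change was 0.58 and it passed the test (limma adjusted p = 0.0409), the only member to do so when any of the 6 libraries was left out. That fit called 133 of all genes, against 10 with all libraries. It made up 2.71, 3.42 and 2.42% and 3.82, 3.800 and 3.52% of the pair with Cox6b1, so the widespread Cox6b1, at 112, 118 and 115 FPKM in the non-pregnant and 124, 135 and 127 FPKM in the pregnant libraries, was far more abundant in every library.

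Cox4i2, the isoform of lung, was low at 1.203 ± 0.3202 and 1.33 ± 0.4204 FPKM (SD, n = 3 each) and 20 to 40 fragments per library. It was 1.32, 0.824 and 1.23% of the pair with Cox4i1 without pregnancy and 0.973, 1.15 and 1.96% in pregnancy, with no separation of groups. Cox4i1, its widespread counterpart, stood at 105 ± 8.79 and 98.2 ± 6.998 FPKM. The muscle isoforms Cox6a2 and Cox8b, and Cox7b2 and Cox8c, known from testis, were at 0 or close to it. Cox7b2 and Cox8b were listed at 0 in all 6 libraries. Cox6a2 had 1 fragment, in pregnant library 2, and Cox8c had 2, in pregnant library 1. Their widespread counterparts were abundant, Cox6a1 at 126 ± 10.7 and 137 ± 5.75 FPKM, Cox7b at 38.6 ± 2.66 and 44.1 ± 1.02 FPKM and Cox8a at 98.7 ± 10.2 and 118 ± 5.89 FPKM (SD, n = 3 each).

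Of these, Cox8a and Cox7b did not overlap between the groups. Cox8a was at 87.4, 102 and 107 FPKM in the non-pregnant and 124, 118 and 112 FPKM in the pregnant libraries, and Cox7b at 36.2, 38.1 and 41.5 FPKM and 43.3, 43.7 and 45.2 FPKM. The means differed 1.19-fold and 1.14-fold. Neither passed the test (limma adjusted p = 0.351 and 0.362). The lowest log2 change of all members was that of Cox7a2l, at 45.8, 45.1 and 56.05 FPKM in the non-pregnant and 45.9, 46.6 and 33.04 FPKM in the pregnant libraries. Its groups overlapped, and pregnant libraries 1 and 2 lay within the non-pregnant range. Among the members under other complexes, Ndufa4 stood at 40.6 ± 4.54 and 44.98 ± 1.62 FPKM, and its paralogue Ndufa4l2, a target of hypoxia signalling, did not reach the filter at 0.135 and 0.101 FPKM with 2 to 7 fragments per library.

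**Figure D4:**
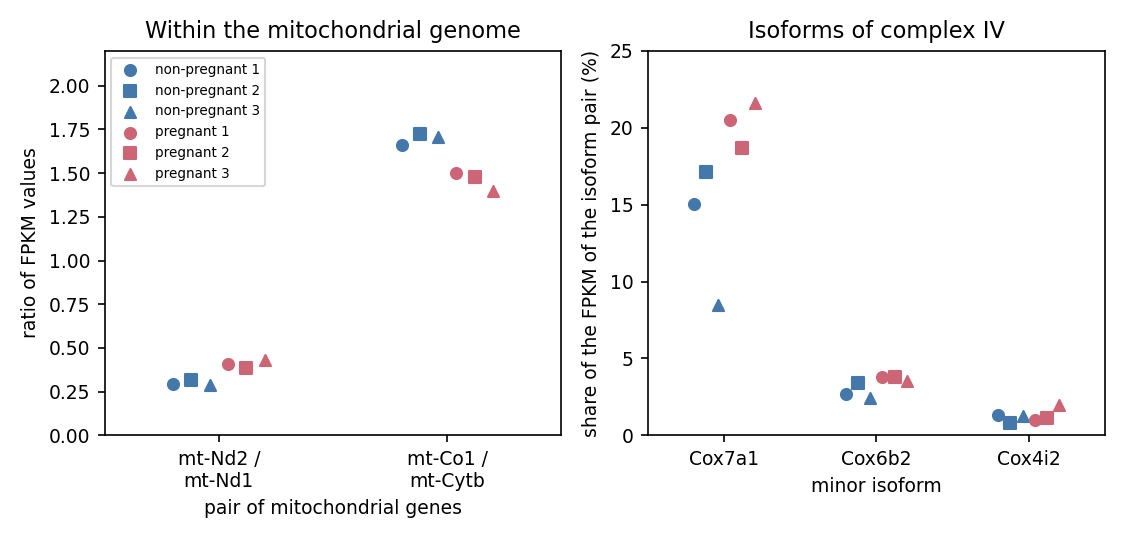
Left, ratios of FPKM values between pairs of mitochondrial genes; right, the share (%) of the minor isoform in the summed FPKM of 3 complex IV pairs (Cox7a1 with Cox7a2, Cox6b2 with Cox6b1, Cox4i2 with Cox4i1); points are the 6 libraries. The pregnant points lie above the non-pregnant ones for mt-Nd2 over mt-Nd1, Cox7a1 and Cox6b2, below them for mt-Co1 over mt-Cytb (which overlaps after quantile normalisation), and among them for Cox4i2.

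Complex V held the most abundant nuclear members, whose group means were nearly equal. Atp5a1 and Atp5b, the alpha and beta subunits that form the catalytic head, stood at 193 ± 14.4 and 193 ± 5.79 FPKM and 154 ± 9.94 and 154 ± 4.07 FPKM (SD, n = 3 each). The 5 genes of the head (Atp5a1, Atp5b, Atp5c1, Atp5d and Atp5e) had a median log2 change of 0.00. Only the smallest of them, the epsilon subunit Atp5e, did not overlap, at 16.4, 18.9 and 16.8 FPKM in the non-pregnant and 19.6, 21.03 and 20.8 FPKM in the pregnant libraries (limma adjusted p = 0.322). The gamma subunit Atp5c1, which turns within the head, was at 46.5, 51.3 and 65.7 FPKM in the non-pregnant and 49.98, 50.5 and 46.5 FPKM in the pregnant libraries, with non-pregnant library 3 highest and all 3 pregnant values within the non-pregnant range.

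Atp5md, a small membrane subunit, was at 5.97, 5.81 and 6.01 FPKM in the non-pregnant and 6.85, 6.87 and 7.399 FPKM in the pregnant libraries (log2 change of 0.21 with SE 0.07, limma adjusted p = 0.306). The coefficient of variation of its non-pregnant values, 1.78%, was below the 4.42% that counting 471 to 583 fragments gives by itself, so its SD overstates the precision. The same held for Atp5g1, at 4.36, 4.51 and 4.32 FPKM in the non-pregnant and 5.09, 4.66 and 5.33 FPKM in the pregnant libraries. It is 1 of 3 genes for the c subunit, whose ring turns in the membrane and whose mature protein is identical among them. Atp5g3 was the most abundant of the 3 at 33.9 ± 2.14 and 35.2 ± 0.253 FPKM (SD, n = 3 each), and Atp5g2 stood at 8.42 ± 1.301 and 8.69 ± 1.398 FPKM. Of the 50-base runs of Atp5g2, 36.7% also occur in a pseudogene, the highest share of any nuclear member, so its level is uncertain. In all, 9 of the 86 nuclear members shared over 10% of their runs with a pseudogene, and 19 with any other annotated gene, Atp5o most at 41.6%. Among these are 3 members without overlap between the groups, Ndufb6 at 31.6% (with Smim27), Ndufa13 at 28.5% (with Tssk6) and Atp5g1 at 11.1%, whose levels are therefore uncertain too. Atp5l, the membrane subunit g, did not reach the filter, at 0.813, 0.693 and 0.688 FPKM in the non-pregnant and 0.524, 0.678 and 0.791 FPKM in the pregnant libraries. These are 90 to 156 fragments per library over an annotated exon length of 6443 bases. Of its 50-base runs 9.99% occur in other genes, and the part of shared sequence in this low level was not tested.

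**Figure D5:**
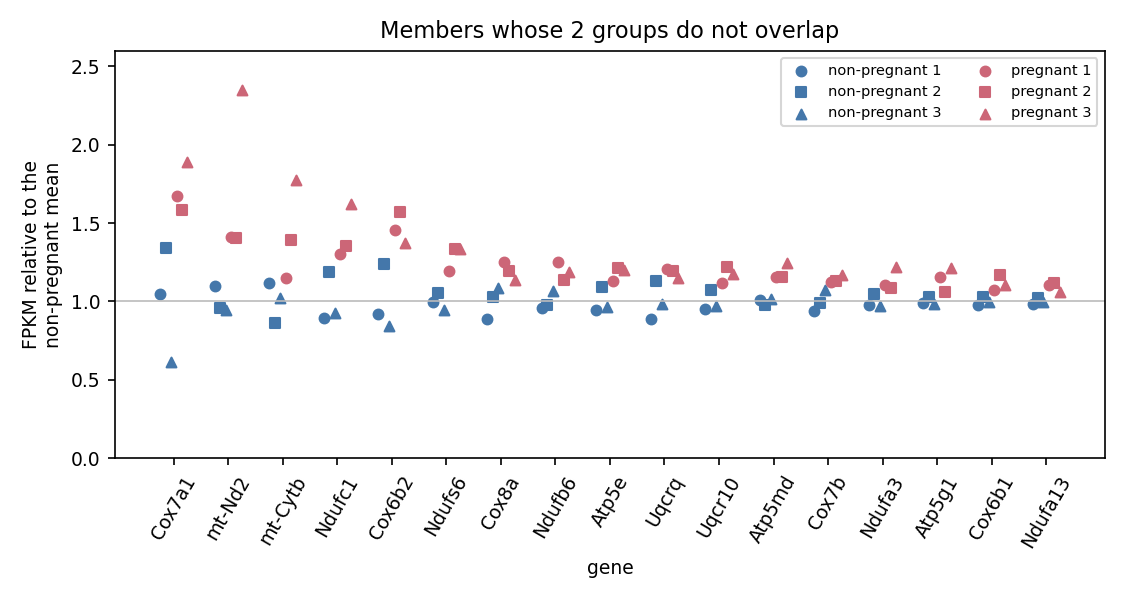
FPKM of the 17 members whose groups do not overlap, divided by the mean of the 3 non-pregnant libraries (vertical axis), in each of the 6 libraries (points), ordered by log2 change. Cox7a1 and mt-Nd2 are highest at 1.72-fold in the mean, and the 11 genes from Cox8a on differ by 1.19-fold or less.

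Shorter nuclear members had slightly higher log2 changes than longer ones. Across the 80 tested nuclear members the log2 change had a Spearman correlation of -0.35 with exon length, and across 11410 tested genes of known length -0.17. This is a description across genes, which share the same 6 libraries and are not independent. The shorter members had a median log2 change of 0.09 and the longer ones of 0.01, split at a median length of 1578 bases. The part of length in the differences was not tested.

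Nuclear genes of the respiratory chain are known to be read with the help of NRF1, GABP (an ETS factor), YY1 and the oestrogen-related receptors. Promoter windows from RefSeq (GRCm38.p6, the build called mm10), 250 bases before to 50 after a start site, matched 69 of the 86 nuclear members, with 74 windows. On both strands, the NRF1 motif GCGCATGCG was in 10.8% of these windows and in 1.75% of all 32851 windows. The YY1 motif AAGATGGCG was in 9.46% and 1.40%, the receptor motif TCAAGGTCA in 2.703% and 0.423%, and the ETS motif CCGGAAGT in 6.76% and 3.89%. No motif is contained in another. These are shares of exact matches, at most 8 member windows for a motif, and a window without a match says nothing of the factor. The windows printed are those of Ndufs6 and Ndufc1, the members with the smallest p, with the YY1 match of each in capitals.
Ndufs6: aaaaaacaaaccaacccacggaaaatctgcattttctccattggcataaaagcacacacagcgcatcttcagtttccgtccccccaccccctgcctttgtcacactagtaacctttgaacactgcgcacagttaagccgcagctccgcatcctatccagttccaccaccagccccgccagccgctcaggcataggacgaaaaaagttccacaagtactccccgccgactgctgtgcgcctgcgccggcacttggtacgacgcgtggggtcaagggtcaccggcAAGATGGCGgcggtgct
Ndufc1: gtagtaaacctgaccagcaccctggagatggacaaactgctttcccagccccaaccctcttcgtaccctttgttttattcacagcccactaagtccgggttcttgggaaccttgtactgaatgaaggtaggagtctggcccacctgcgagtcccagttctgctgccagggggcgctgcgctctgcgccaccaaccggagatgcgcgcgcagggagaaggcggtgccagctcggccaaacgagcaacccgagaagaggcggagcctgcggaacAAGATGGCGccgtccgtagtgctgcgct

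The window of Ndufs6 is chr13:73328433-73328732 and that of Ndufc1 chr3:51408906-51409205, both on the minus strand. The other 5 members with a YY1 match were Ndufs4, Ndufs7, Ndufa9, Atp5j and Atp5j2, and their groups overlapped. Ndufs4 stood at 9.06 ± 0.818 and 9.61 ± 0.616 FPKM, Ndufs7 at 25.6 ± 1.93 and 24.3 ± 0.323 FPKM and Ndufa9 at 21.4 ± 0.867 and 21.4 ± 0.384 FPKM (SD, n = 3 each). Of the 8 members with an NRF1 match (Ndufa8, Ndufa11, Uqcrc1, Uqcr11, Cox6a1, Atp5g2, Atp5k and Atp5l) none was without overlap, and of the 5 with an ETS match (Ndufs3, Uqcrh, Uqcr11, Atp5h and Cox8a) only Cox8a was. The window of Cox7a1, the nuclear member with the largest log2 change, held none of the 4 motifs.

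Genes that build or regulate the chain were read from lists by function, and none of their tested genes passed. The transcription factors and coactivators of mitochondrial biogenesis had a median log2 change of -0.11, and 5 of 14 lay above 0. The coactivator Ppargc1a stood at 11.8, 8.87 and 13.2 FPKM in the non-pregnant and 10.3, 10.6 and 9.25 FPKM in the pregnant libraries, and the groups overlapped. Nrf1 was at 3.99, 3.81 and 3.89 FPKM and 3.59, 3.66 and 3.42 FPKM, lower in all 3 pregnant libraries by a small margin (limma adjusted p = 0.525), and Gabpa at 12.3 ± 1.696 and 11.2 ± 0.4002 FPKM (SD, n = 3 each). Ppargc1b stood at 1.35 ± 0.575 and 0.8798 ± 0.143 FPKM. Myc, a growth regulator, was at 59.6, 69.1 and 67.7 FPKM in the non-pregnant and 75.4, 81.1 and 86.4 FPKM in the pregnant libraries. The coactivator Pprc1 was at 13.4, 13.99 and 12.1 FPKM and 14.7, 14.7 and 16.2 FPKM in the same order. Both were without overlap. The thyroid hormone receptor Thrb was lower without overlap, at 3.44, 2.63 and 5.09 FPKM in the non-pregnant and 2.35, 2.304 and 2.097 FPKM in the pregnant libraries (limma adjusted p = 0.319).

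Genes that keep, copy and transcribe mitochondrial DNA had a median log2 change of -0.08, and 5 of 16 lay above 0. Tfam, which packages the DNA and starts its transcription, was at 5.92, 5.57 and 9.13 FPKM in the non-pregnant and 5.896, 5.91 and 5.63 FPKM in the pregnant libraries, with non-pregnant library 3 alone at the high end. The mitochondrial RNA polymerase Polrmt was at 9.88, 10.8 and 9.93 FPKM in the non-pregnant and 9.38, 8.801 and 9.35 FPKM in the pregnant libraries, lower in all 3 pregnant libraries (limma adjusted p = 0.421). The DNA polymerase Polg stood at 10.9 ± 0.349 and 9.59 ± 0.401 FPKM and the methyltransferase Tfb1m at 2.11 ± 0.107 and 2.51 ± 0.141 FPKM (SD, n = 3 each), also without overlap and in opposite directions. Of 16 genes for processing and stability of mitochondrial RNA 2 lay above 0, with a median of -0.08, and Lrpprc, which stabilises many mitochondrial mRNAs, was at 6.100 ± 0.531 and 5.799 ± 0.468 FPKM. The 77 tested genes of the mitochondrial ribosome had a median of -0.03, with 31 above 0. Its member Mrpl2 was lower without overlap, at 20.1, 20.7 and 21.7 FPKM in the non-pregnant and 16.9, 17.98 and 17.2 FPKM in the pregnant libraries (limma adjusted p = 0.295).

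Assembly factors had medians of 0.00 for complex I (8 of 16 above 0), -0.03 for II (1 of 3), 0.06 for III (3 of 5), 0.03 for IV (12 of 20) and 0.02 for V (5 of 6). The 5 include Atp5md and Atp5mpl, which are also members, and Tmem70, which is in the list for complex I too. The complex IV assembly factor Coa3 was at 25.02, 30.6 and 20.5 FPKM in the non-pregnant and 32.8, 33.9 and 32.6 FPKM in the pregnant libraries (limma adjusted p = 0.315). Its groups did not overlap, with non-pregnant library 2 closest. Cox19, a copper carrier for complex IV, stood at 7.07 ± 0.387 and 8.63 ± 0.856 FPKM, Cox18, which inserts a subunit of that complex, at 2.78 ± 0.485 and 3.61 ± 0.258 FPKM, and the complex I factor Ndufaf3 at 5.61 ± 0.815 and 6.903 ± 0.417 FPKM (SD, n = 3 each), each without overlap. The list of electron carriers had a median of -0.04, with 6 of 16 above 0. Besides carriers outside the complexes it holds Ndufab1, a complex I gene that the symbol rule leaves out. Coq4, of ubiquinone synthesis, was at 3.12, 3.600 and 2.51 FPKM in the non-pregnant and 4.34, 4.08 and 4.07 FPKM in the pregnant libraries, and Etfa, which feeds electrons from fatty acid oxidation, at 37.7, 39.6 and 52.00 FPKM and 32.8, 36.6 and 29.8 FPKM. The first was higher and the second lower without overlap. Citric acid cycle genes had a median of -0.04, with 3 of 16 above 0, and carriers of the inner and outer membrane one of -0.03, with 4 of 9.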

How the data were processed

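RNA-seq of 6 libraries was analysed from the table of FPKM values that the authors deposited. Per the submitters' processing notes the build was mm10 and the tools included STAR 2.7.9a, cutadapt 3.4, DESeq2 1.30.1 and HTSeq 0.13.5, with no roles given. The sources used here do not give how FPKM was made, the strand setting or the treatment of multi-mapping fragments. Groups were taken from the sample titles. The descriptions number non-pregnant library 3 as 4.

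FPKM times the GENCODE vM21 exon length was a whole multiple of 1 step per library, within 0.01, for 98.5% to 98.6% of the values above 0, which gave the fragment numbers. The 11412 genes that averaged 1 FPKM or more were tested two-sided on log2(FPKM + 1). The pseudocount of 1 makes changes of low genes look smaller. The test was limma 3.58.1 with a trended prior (R 4.3.3), adjusted over all 11412 genes by Benjamini-Hochberg with a threshold of 0.05. The fit was also run on simulated data. These had the same spread in both groups, unlike the libraries here, so that run cannot show how well the fit finds changes in these libraries. The members and lists were chosen with earlier results of these data known. Named are all mitochondrial members and all below the filter, the isoform pairs, per complex the 4 members with the smallest p and the 2 highest, up to 10 without overlap per direction, and up to 3 genes per list by smallest p, besides 7 regulators named in any case. Other genes named, such as the core subunits of complex I and further members without overlap, were picked after their values were seen. Some values are not reported here. Alternatives were other pseudocounts, filters and scalings, robust empirical Bayes, limma-voom, a replicate block and leaving out each library. Sequences were compared with Biopython 1.88, and tables and figures made with Python 3.11.15, pandas 2.3.3 and matplotlib 3.10.9.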

Additional observations from a re-analysis of the deposited data

How the results depend on the processing

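Under the 17 alternatives the number of mitochondrial members called stayed at 0. The number of nuclear members called was 0 to 1 when a library was left out, the 1 being Cox6b2 without non-pregnant library 2, and 0 under all other alternatives. Over the alternatives the median log2 change of the mitochondrial members ranged from 0.19 to 0.51, that of the nuclear members from -0.01 to 0.08, and the fold of the mitochondrial over nuclear ratio, which was recomputed under 7 of them (quantile normalisation and without each library), from 1.11 to 1.41. Leaving out 1 library gave both ends of each range but the 0.08, which came from upper-quartile scaling. Of the 80 nuclear members 47 to 57 lay above 0 under the scalings. The median of all tested genes lay between -0.03 and 0.01 under the scalings.

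The titles give both groups replicate numbers 1 to 3, but the deviations of same-numbered libraries correlated at 0.07, 0.02 and -0.14, so the numbers were not taken to pair the samples. With a replicate block 0 mitochondrial and 0 nuclear members were called, with 13 calls over all genes against 10. Calls over all genes numbered 1 with limma-voom, 4 with a filter of 5 FPKM, 5 with robust empirical Bayes, 12 with scaling to genes not mitochondrially encoded, and 0 with no filter or a pseudocount of 5 FPKM. Without a library they numbered 0 to 133. Counting limits the precision too: the coefficient of variation was below the counting error for 3 of the 87 tested members in the non-pregnant and for 19 in the pregnant group, Cyc1 and Atp5g3 among them, so these SDs overstate the precision. With a pseudocount of 5 FPKM the log2 change was 0.25 for Cox6b2 and 0.14 for Atp5md. Without non-pregnant library 3 it was 0.25 for Coa3, 0.16 for Ndufaf3, -0.22 for Etfa and -0.31 for Thrb, and without non-pregnant library 1 it was 0.15 for Uqcrq.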
